A study of Caenorhabditis elegans with 6 samples.

Results

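The insulin-like peptide genes of Caenorhabditis elegans were followed in RNA from newly hatched, starved larvae. They were taken as every gene that the RefSeq annotation names ins followed by a number, plus daf-28, which gave 40 genes. Of these, 35 had at least 1 transcript record in the count tables (37 records of 50832), 32 had counts in at least 1 library, and 26 passed a filter on low counts and were tested. The rule used gene names only and no measured value, but it was set with earlier results of these data known.

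Insulin-like peptides are secreted signals, many of them made by sensory neurons and others by the intestine and epidermis. They bind DAF-2, the worm's insulin and IGF receptor, some as agonists and some as antagonists. An active receptor works through the lipid kinase AGE-1 and the AKT kinases to keep the FOXO transcription factor DAF-16 out of the nucleus. Larvae that hatch without food hold their development in a first-stage (L1) arrest, and low DAF-2 signalling is part of how that arrest is kept.

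Whole L1 larvae of 2 groups were compared, each with 3 libraries: the wild-type strain N2, and animals carrying spr-5(by101) on chromosome I and met-2(n4256) on chromosome III. SPR-5 removes methyl groups from histone H3 lysine and is related to LSD1; MET-2 adds them to another lysine of H3. Animals of both groups were fed HT115 bacteria on plates at 20 °C, and each RNA sample was prepared from 1000 to 1500 larvae that had hatched without food at 21 to 22 °C; the column headers of all 6 libraries also carry the vector name L4440. The study asked which genes differ in the double mutant progeny; how many generations the double mutant had been kept is not given in the sources used here.

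Library totals lay between 17062557 and 25368364 counts. Levels are given as CPM, counts scaled to a common library size with TMM normalisation, and changes as log2 fold changes of spr-5; met-2 over N2 with their SE from edgeR's quasi-likelihood test, adjusted over all 14557 tested records. The transcript of spr-5 stood at 47.5 to 66.2 CPM in N2 and at 116 to 129 CPM in the mutant (1.19 ± 0.16, edgeR adjusted p = 0.00132). That of met-2 was at least 101 CPM in N2 and lay between 79.8 and 87.3 CPM in the mutant (-0.43 ± 0.11, edgeR adjusted p = 0.0290). Neither transcript was lost, and whole-transcript counts do not show an allele's lesion, so they check no label. The labels do not say whether replicates of a group were separate cultures, so the p-values measure how far these libraries differ, and that may be a technical spread.

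Most of the family stood lower in the mutant larvae. Of the 26 tested genes, 11 fell (where 11.7% of all tested records fell) and 3 rose (where 14.3% of all records rose). The 3 that rose would not have passed the filter on low counts on their N2 libraries alone. The median log2 fold change of the tested members was -0.75, against -0.01 over all tested records. With a replicate block and a trend with exon length removed, it was -0.51, against -0.00 over all records. In that fit 10 members and 2288 of all records fell, and 3 and 2606 rose. Without mutant replicate 3 the count that fell was 6, and that of all records went from 1698 to 800. Of the other 12 members, 11 had a log2 fold change below 0 and ins-14 one of 0.02. Of these 11, ins-2, ins-20 and ins-25 would not have passed the count filter on their mutant libraries alone. The filter left them little room for a rise, and they also enter the median. Past a 2-fold change, 7 members fell and 3 rose, beside 4.78% and 10.1% of all records. The libraries of the mutant lay wholly below those of N2 in 14 members and wholly above in 3, which held for 21.3% and 22.3% of all records. Among the 14 are ins-20 and ins-25. Within all 3 same-numbered pairs 20 members were lower in the mutant and 3 higher, as were 31.6% and 32.3% of all records. With the replicate number as a block, 12 members fell and 3 rose, beside 16.3% and 18.9% of all records. With scaling by library size only, the median of all records moved to 0.21 and that of the members to -0.51; then 9 members fell and 3 rose, beside 5.69% and 19.8% of all records.

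**Figure D1:**
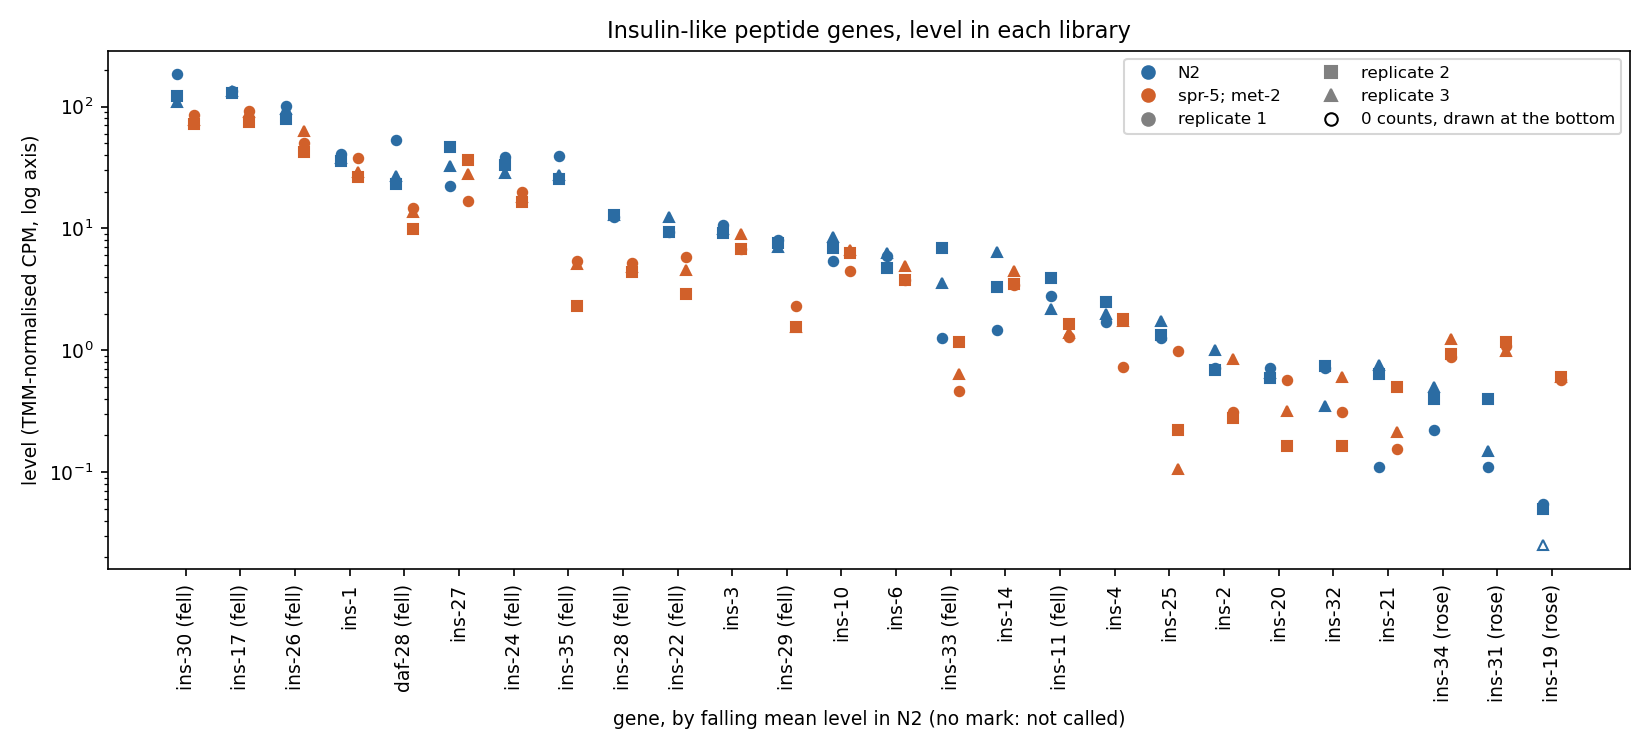
Level of each tested insulin-like peptide gene in each of the 6 libraries, in TMM-normalised CPM on a log axis; blue marks are N2, orange marks spr-5; met-2, and the shape gives the replicate. The mutant libraries lie wholly below N2 for 14 genes, and ins-34, ins-31 and ins-19, the genes with the lowest N2 levels, lie wholly above. Those genes would not have passed the count filter on their N2 libraries alone. Likewise ins-20 and ins-25, among the 14, would not have passed it on their mutant libraries alone.

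Summed over all 37 records, the family held 677, 569 and 570 CPM in N2 replicates 1 to 3 and 363, 320 and 371 CPM in those of the mutant. Every mutant library was thus below every N2 library, and the mutant mean was 0.580 times the N2 mean. A small group of genes carries most of this sum: ins-17, ins-26 and ins-30 together made up 59.8% of it in N2 and 61.4% in the mutant. Without them the rest summed to 259, 239 and 231 CPM in N2 and 135, 130 and 140 CPM in the mutant, a ratio of 0.557. In whole-animal RNA, fewer cells of a type and less RNA per cell cannot be told apart.

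Levels of different genes were compared per kilobase of exon. In N2 the order was led by ins-17 at 237 ± 3.75 CPM per kb (SD, n = 3), ins-30 at 205 ± 58.4 and ins-26 at 200 ± 25.4, and the libraries of ins-30 spanned the means of both others. The gene ins-27 followed at 109 ± 39.7, then ins-35 at 80.4 ± 19.7 and ins-24 at 69.9 ± 10.5, neighbours that did not differ beyond their spread. The same 4 genes led in the mutant, with ins-17 at 154 ± 16.7 CPM per kb and ins-27 at 86.9 ± 31.1. The gene whose place moved furthest among the upper ranks was ins-35, from place 5 in N2 to place 13 in the mutant, where it stood at 11.2 ± 4.44 CPM per kb.

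Among the genes for known DAF-2 agonists, daf-28 fell. Its product is a sensory neuron peptide that favours reproductive growth over entry into the dauer stage. Its level was 53.5, 23.3 and 26.9 CPM in N2 replicates 1 to 3 and 14.7, 9.86 and 13.6 CPM in the mutant. The groups did not overlap, and N2 replicate 1 stood at about the sum of the other N2 libraries. The log2 fold change was -1.44 ± 0.33 (edgeR adjusted p = 0.0157). The call was lost without mutant replicate 2 (edgeR adjusted p = 0.0584) and without its replicate 3 (0.0524), and the adjusted p ranged from 0.000170 to 0.0584 over all alternatives.

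The agonist genes ins-4 and ins-6, which share daf-28's role in dauer control, did not pass the threshold. Levels of ins-6 were 5.93, 4.75 and 6.25 CPM in N2 and 3.77, 3.80 and 4.91 CPM in the mutant, with the highest mutant library above the lowest N2 library. Its log2 fold change was -0.44, with a 95% interval from -0.95 to 0.08 (edgeR adjusted p = 0.194). For ins-4 the libraries read 1.70, 2.47 and 2.0 CPM in N2 against 0.723, 1.82 and 1.74 CPM, with a log2 fold change of -0.52 and an interval from -1.41 to 0.37 (edgeR adjusted p = 0.362). Whether daf-28 differs from ins-4 or ins-6 in its change was not tested, and their intervals overlap that of daf-28, from -2.20 to -0.68.

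The gene ins-3, an agonist that acts in larval growth control, stood at 10.7, 9.15 and 9.95 CPM in N2 and at 6.82, 6.83 and 9.06 CPM in the mutant. All mutant libraries lay below all N2 libraries, but the log2 fold change of -0.39 ± 0.19 did not pass (edgeR adjusted p = 0.183).

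Of the antagonist genes, ins-17 fell and ins-1 did not pass, a difference that was not itself tested. The peptide INS-1 counters DAF-2 signalling and acts in learning; its gene held 41.1, 35.6 and 37.5 CPM in N2 and 37.5, 26.3 and 29.2 CPM in the mutant. The groups overlapped, and the log2 fold change of -0.30 had an interval from -0.67 to 0.08 (edgeR adjusted p = 0.223). The gene ins-17, whose peptide has been reported to act against DAF-2 in larval diapause, fell from 134, 130 and 133 CPM in N2 to 92.4, 75.0 and 89.6 CPM. Here the N2 libraries were nearly level and all mutant libraries were lower, with a log2 fold change of -0.62 ± 0.12 (edgeR adjusted p = 0.00735). Scaling by library size only ended this call, with a log2 fold change of -0.40 (edgeR adjusted p = 0.0702). No record in the tables was matched to ins-18, the other well-known antagonist gene, so it was not analysed here.

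Genes for intestinal peptides held the largest fall among the tested members. The gene ins-35, whose peptide is made in the intestine and linked to diapause, read 39.4, 25.6 and 27.2 CPM in N2 and 5.37, 2.31 and 5.12 CPM in the mutant. The lowest N2 library was several times the highest mutant library, and the log2 fold change was -2.84 ± 0.34 (edgeR adjusted p = 0.000790). Every alternative kept this call, with adjusted p between 1.04e-16 and 0.00430.

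The gene ins-11, which acts from intestine to neurons in responses to pathogens, read 2.80, 3.91 and 2.20 CPM in N2 and 1.29, 1.65 and 1.39 CPM in the mutant. The groups did not overlap, and ins-11 fell by 1.04 on the log2 scale (edgeR adjusted p = 0.0380). This was the least secure fall: it kept its call in 1 of the 6 fits that leave out a library, that without N2 replicate 3, and in those 6 fits the adjusted p reached 0.140. Its call was also lost with library size only (edgeR adjusted p = 0.0928), without the count filter (0.0518) and with the replicate block and length trend removed (0.0925). The gene ins-7, for an intestinal agonist that DAF-16 represses, was listed at 0 in every library, as were ins-8 and ins-36. For ins-7 and ins-8 the tables hold 2 records each, and for ins-36 they hold 1 of 2 annotated records. Protein-coding genes with several records were at 0 throughout in 21.2% of 3565 cases, against 7.49% of 14547 genes with a single record. A count of 0 allows up to 0.0514 CPM over the N2 group and 0.0457 CPM over the mutant group (3 counts, counting error only), for reads that the counting could assign.

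The remaining falls were mainly in one stretch of chromosome I. The mutated gene spr-5 lies on the same chromosome, and its distance from the stretch was not examined. Sequence differences between the strains near it were not tested. Along it lie, in order, ins-28, ins-29, ins-25, ins-27, ins-24, ins-30 and ins-26, with the genes ZC334.13 and ZC334.12 between some of them. All 7 had a log2 fold change below 0, and 5 fell, where 11.7% of all tested records fell. Summed, these genes held 367, 303 and 289 CPM in N2 and 181, 174 and 193 CPM in the mutant, and so made up 52.7% of the family in N2 and 52.1% in the mutant. The mutant libraries all lay below the N2 libraries, by a ratio of means of 0.572.

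At the start of the stretch lie ins-28 and ins-29. For ins-29 the libraries read 8.07, 7.57 and 7.0 CPM in N2 and 2.32, 1.54 and 1.56 CPM in the mutant, with a log2 fold change of -2.06 ± 0.24 (edgeR adjusted p = 0.000794). For ins-28 they read 12.4, 12.9 and 12.8 CPM in N2 and 5.22, 4.35 and 4.83 CPM in the mutant, a change of -1.40 ± 0.17 (edgeR adjusted p = 0.000937). Both genes were tight within each group and far apart between groups. ZC334.13, the gene between them, fell as well, from 6.53, 5.34 and 6.05 to 2.48, 1.60 and 2.63 CPM, a log2 fold change of -1.41 ± 0.26 (edgeR adjusted p = 0.00618).

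The 3 genes at the other end of the stretch fell too; whether their changes differ from those of ins-28 and ins-29 was not tested. Levels of ins-24 were 38.5, 33.3 and 28.4 CPM in N2 and 19.9, 16.5 and 18.2 CPM in the mutant, a log2 fold change of -0.88 ± 0.16 (edgeR adjusted p = 0.00621). Levels of ins-26 were 101, 78.9 and 95.8 CPM in N2 and 49.8, 42.6 and 63.2 CPM in the mutant, a change of -0.83 ± 0.17 (edgeR adjusted p = 0.0111). The groups did not overlap in either gene. For ins-30, N2 replicate 1 stood apart at 184 CPM, with 122 and 110 CPM in the other N2 libraries and 85.6, 72.6 and 77.7 CPM in the mutant, a change of -0.82 ± 0.20 (edgeR adjusted p = 0.0194). That call was lost without mutant replicate 2 (edgeR adjusted p = 0.0718) or its replicate 3 (0.0740), and without N2 replicate 1 the log2 fold change was -0.58.

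The middle of the stretch held the genes that did not pass. Counts of ins-25 were low, at 1.26, 1.34 and 1.75 CPM in N2 and 0.981, 0.220 and 0.107 CPM in the mutant, where replicate 1 stood well above the others. Its log2 fold change of -1.78 ± 0.68 missed the threshold (edgeR adjusted p = 0.0942), and passed with the replicate number as a block (adjusted p = 0.0420), with limma voom (adjusted p = 0.0322) and without mutant replicate 1 (adjusted p = 0.00578, log2 fold change -3.18). With the block and the length trend removed it did not pass (edgeR adjusted p = 0.0737). ZC334.12 did not pass either, at -0.26 ± 0.51 (edgeR adjusted p = 0.749), nor did ZC334.7 before the stretch, at -0.80 ± 0.45 (edgeR adjusted p = 0.240). These uncharacterised neighbours are named for their position, not for their values.

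**Figure D2:**
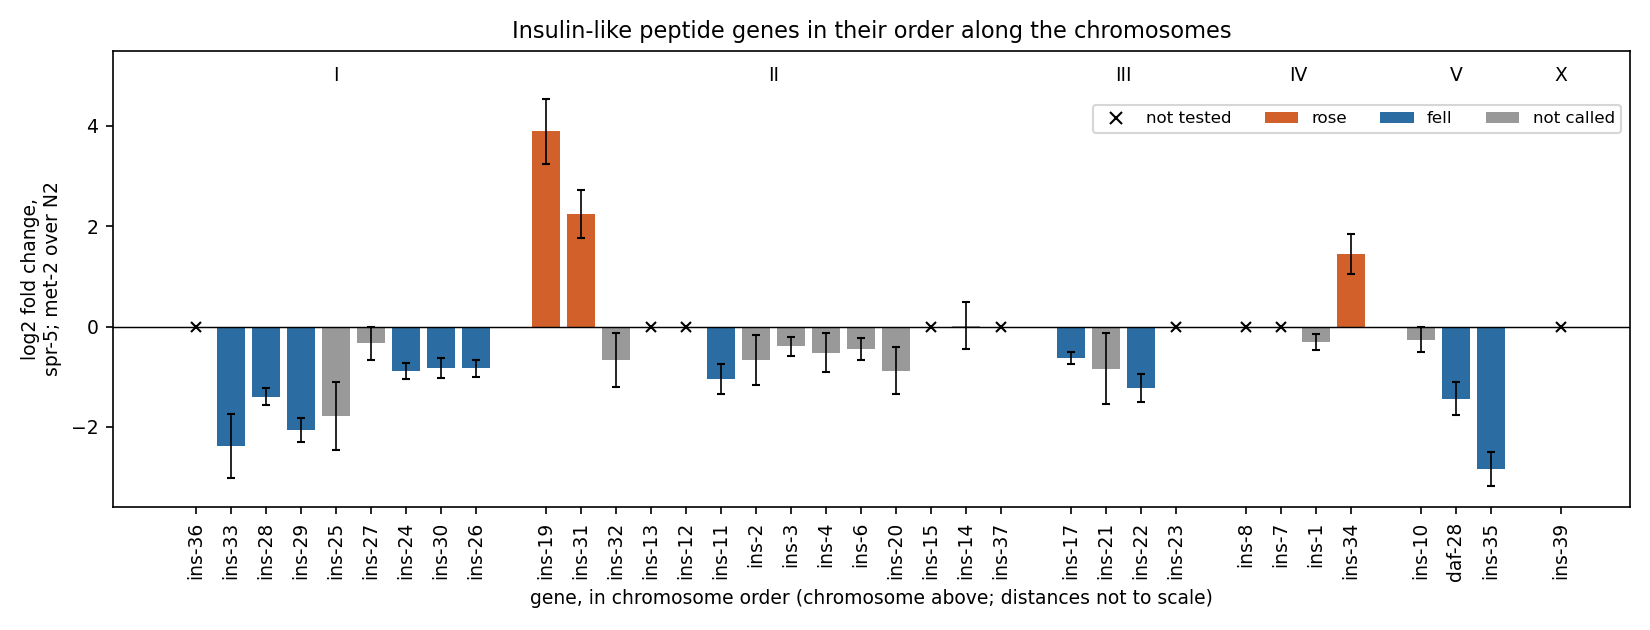
Log2 fold change of spr-5; met-2 over N2 for each insulin-like peptide gene with a record, in chromosome order with the chromosome above (bars: 1 SE; crosses: not tested; distances not to scale). The 7 genes from ins-28 to ins-26 on chromosome I all lie below 0, while the adjacent ins-19 and ins-31 on chromosome II rose.

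The gene ins-27, of the same stretch, moved with the replicate number more than with the genotype. It read 22.3, 46.8 and 32.6 CPM in N2 replicates 1 to 3 and 16.9, 36.1 and 27.8 CPM in those of the mutant. Replicate 1 was lowest and replicate 2 highest in both groups, and the mutant was the lower one in each of the 3 same-numbered pairs. The log2 fold change was -0.33, with an interval from -1.1 to 0.44 (edgeR adjusted p = 0.507), and with the replicate block the adjusted p was 0.0611.

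The gene ins-33, elsewhere on chromosome I, showed the same order of libraries together with a fall. It read 1.26, 6.88 and 3.55 CPM in N2 and 0.465, 1.16 and 0.640 CPM in the mutant, so that N2 replicate 1 lay barely above the highest mutant library. The log2 fold change was -2.38 ± 0.63 (edgeR adjusted p = 0.0273). Leaving out N2 replicate 2 gave a log2 fold change of -1.69 and an adjusted p of 0.0854. The call was also lost without N2 replicate 3 (0.0572), without mutant replicate 1 (0.0731) or 3 (0.102), and with limma voom (0.0607); with the replicate block the adjusted p was 0.00134. Of 6 tested cuticle collagen genes on the epidermis marker list, 5 were highest in replicate 2 of both groups. Of these, rol-6 read 1.32, 45.0 and 14.7 CPM in N2 and 6.87, 83.3 and 15.6 CPM in the mutant, and sqt-3 read 3.40, 15 and 6.30 against 3.20, 30.9 and 9.67 CPM. The exception was bli-1, at 2.25, 3.07 and 1.85 CPM in N2 and 2.22, 1.05 and 2.56 CPM in the mutant, where replicate 2 was lowest. The summed epidermis markers ranged from 22.5 to 258 CPM in N2 and from 60.9 to 378 CPM in the mutant. Their part in the levels of ins-27 and ins-33 was not tested.

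**Figure D3:**
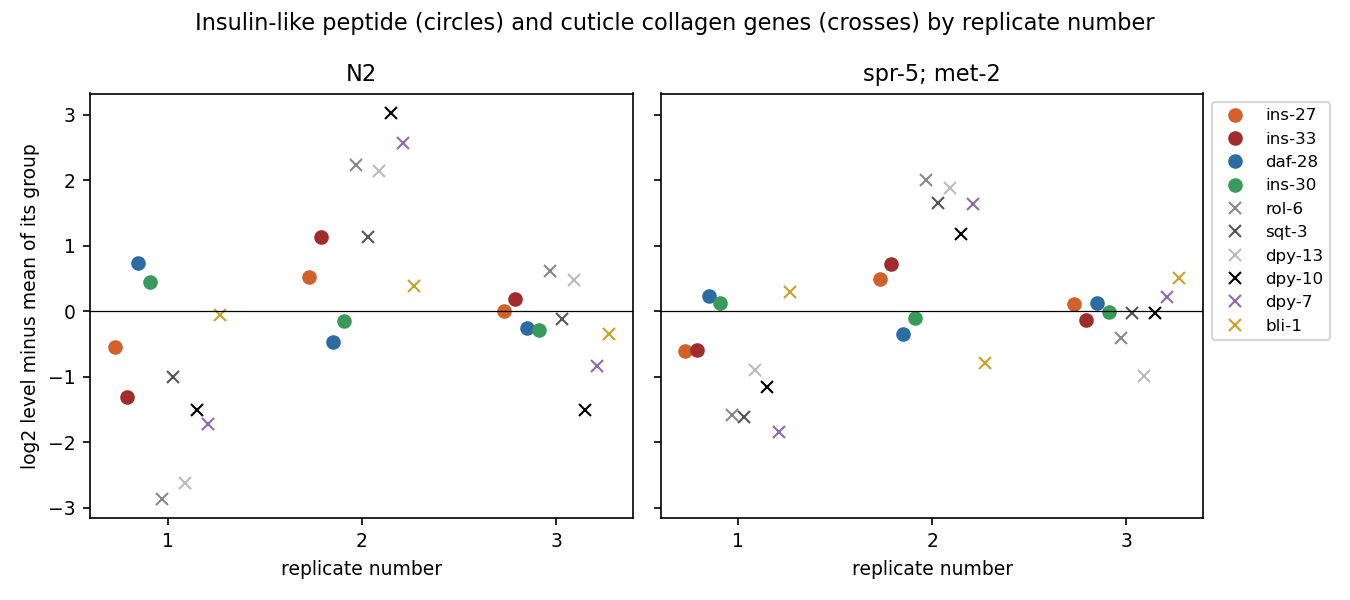
Log2 level of 4 insulin-like peptide genes (circles) and 6 cuticle collagen genes (crosses) in each library, less the mean of its group, against the replicate number. In both groups ins-27, ins-33 and the collagen genes other than bli-1 are highest in replicate 2 and below their group mean in replicate 1, where daf-28 and ins-30 lie above theirs.

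On chromosome III ins-22 fell. Its libraries read 9.39, 9.30 and 12.5 CPM in N2 and 5.83, 2.92 and 4.55 CPM in the mutant, with no overlap; ins-22 changed by -1.23 ± 0.28 on the log2 scale (edgeR adjusted p = 0.0158). Without mutant replicate 3 the adjusted p was 0.0609. Its neighbour ins-21, with 30 counts over the N2 libraries and 18 over those of the mutant, had a log2 fold change of -0.84 ± 0.71 (edgeR adjusted p = 0.427).

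A pair of adjacent genes on chromosome II rose from near 0. The gene ins-19 had 1, 1 and 0 counts in N2 and 11, 11 and 17 in the mutant, or 0.568, 0.606 and 0.604 CPM. Its ratio of 39 counts to 2, corrected for depth, was 17.4 (95% exact interval 4.49 to 148, counting error only), and edgeR fitted a log2 fold change of 3.89 ± 0.65 (adjusted p = 0.00403). The next gene, ins-31, had 2, 8 and 3 counts in N2 and 21, 21 and 28 in the mutant, or 0.110, 0.396 and 0.15 CPM against 1.08, 1.16 and 0.995 CPM. The mutant libraries of both genes were close to each other, and no N2 library reached them; ins-31 changed by 2.25 ± 0.48 on the log2 scale (edgeR adjusted p = 0.0118). Both calls held in every fit that tested these genes at a threshold of 0.05. The gene on the far side of ins-31, chil-24, stood at 21.0, 27.2 and 22.5 CPM in N2 and 21.4, 26.1 and 22.3 CPM in the mutant, a log2 fold change of -0.02 ± 0.16 (edgeR adjusted p = 0.946).

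On chromosome IV ins-34 was the third that rose, from 0.220, 0.396 and 0.500 CPM to 0.878, 0.937 and 1.24 CPM. The groups did not overlap, and the log2 fold change was 1.44 ± 0.40 (edgeR adjusted p = 0.0333). The call is weak: it held in 1 of the 6 fits with a library left out, that without N2 replicate 3, where the highest adjusted p was 0.155, and DESeq2 gave 0.0623. The gene overlaps nkcc-1 on the opposite strand, and the strand setting of the counting is not given in the sources used here; nkcc-1 itself held 0.0551 to 0.258 CPM. All 3 genes that rose were at or under 1.24 CPM in every library, and together they made up 0.106% of the family's CPM in N2 and 0.769% in the mutant. None of the 3 would have passed the count filter on its N2 libraries alone, so the filter left them little room for a fall. Members low in both groups, such as ins-12 and ins-23, were not tested.

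**Figure D4:**
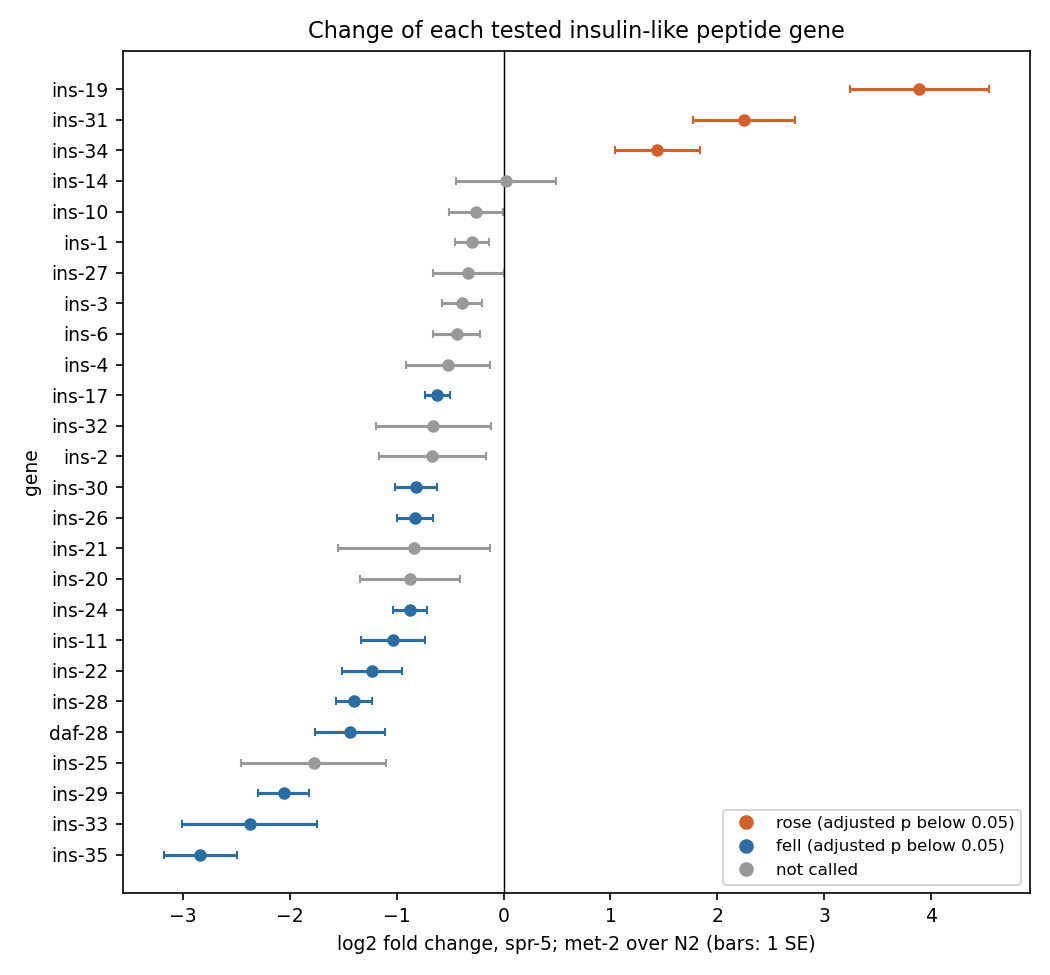
Log2 fold change of spr-5; met-2 over N2 for the 26 tested insulin-like peptide genes, sorted by value (bars: 1 SE from edgeR). The 11 genes that fell run from ins-35 at -2.84 to ins-17 at -0.62, and the 3 that rose from ins-34 at 1.44 to ins-19 at 3.89.

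A further run on chromosome II, from ins-2 through ins-3, ins-4 and ins-5 to ins-6, held no call by edgeR, by DESeq2 or at an unadjusted edgeR p below 0.05, all of which gave 0 of 4 tested genes. Of all tested records, edgeR called 25.9% in either direction. All 4 had a log2 fold change below 0, with ins-2 at -0.67 ± 0.50, and ins-5 had no record. Of the other tested members, ins-10 read 5.38, 6.93 and 8.55 CPM in N2 against 4.49, 6.28 and 6.61 CPM, overlapping groups with a change of -0.26 ± 0.25 (SE). The gene ins-10 overlaps vps-39 on the opposite strand, whose record was listed at 0. In ins-14 the N2 libraries spread most, at 1.48, 3.31 and 6.45 CPM around mutant levels of 3.41, 3.47 and 4.51 CPM. Log2 fold changes of ins-20 and ins-32 were -0.88 ± 0.47 and -0.66 ± 0.54, each at under 1 CPM in every library.

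Counts were too low to test in 6 members. Over the 3 libraries of each group, ins-12 had 25 counts in N2 and 20 in the mutant, ins-15 had 9 and 13, ins-23 had 28 and 13, ins-37 had 18 and 26, and ins-39 had 18 and 25. Of the counts of ins-39 in the mutant, 18 were in replicate 1 and 0 in replicate 2. The gene ins-13 had 2 counts, both in replicate 1 of the mutant. A difference in these genes was not tested in the main fit. The authors' deposited table, made with DESeq2, gave adjusted p of 0.757 for ins-12, 0.926 for ins-15 and 0.380 for ins-23. It gave 0.858 for ins-37, 0.898 for ins-39 and no value for ins-13. No record was matched to ins-5, ins-9, ins-16, ins-18 or the pseudogene ins-38.

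Position was described further through the genes next to the tested members that are not insulin-like peptide genes. Of 21 such neighbours that were read, 14 were tested, of which 1 rose and 1 fell (14.3% and 11.7% of all records). The log2 fold changes of the tested ones had a median of -0.29. Some neighbours were not read, among them K02E2.10 and K02E2.5 on the 2 sides of ins-35 and srh-71 beside ins-19. The one that rose was cpg-1, a chondroitin proteoglycan gene of the eggshell beside ins-17, which went from 15.4, 11.9 and 22.8 CPM to 30.2, 41.9 and 32.8 CPM (log2 fold change 1.06 ± 0.25, edgeR adjusted p = 0.0176). The one that fell was ZC334.13.

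The authors' deposited table, made with DESeq2 per the submitters' processing notes, gave an adjusted p for 31 member records, of which 13 were below 0.05. The same held for 23.6% of all 17918 records with an adjusted p in the authors' deposited table. All 13 were also called by edgeR here, and the 1 member that edgeR added was ins-34, for which the authors' deposited table gives an adjusted p of 0.0614. The authors' deposited table lists log2 fold changes of -1.37 for daf-28, -2.72 for ins-35 and 2.67 for ins-19.

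Genes of the receptor's own pathway were read beside the peptide genes. Of 22 genes of the insulin signalling core, 16 were tested, of which 1 rose and 0 fell (14.3% and 11.7% of all records), with 2 and 1 at an unadjusted edgeR p below 0.05, and 1 and 1 by DESeq2. The median log2 fold change was 0.25. The member that rose was pptr-1, a phosphatase subunit that acts on AKT-1, which went from 125, 107 and 96.8 CPM to 157, 155 and 143 CPM (log2 fold change 0.47 ± 0.13, edgeR adjusted p = 0.0303). The PI3 kinase gene age-1 read 54.1, 40.3 and 32.9 CPM in N2 and 63.4, 55.0 and 50.4 CPM in the mutant, at 0.41 ± 0.19 (edgeR adjusted p = 0.166, and 0.025 with the replicate block). The FOXO gene daf-16 was at 0.48 ± 0.38 (edgeR adjusted p = 0.404). With the block, 4 core genes rose and 1 fell, beside 18.9% and 16.3% of all records, with the length trend also removed 0 rose and 1 fell, and with library size only 4 rose and 0 fell. The count of calls in this list thus depends on the fit. The receptor gene daf-2 has 7 records in the tables with 45 counts in all, and none was tested. Genes with several records were more often at 0 than those with a single record, so these counts do not give its level.

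A further list held genes that process propeptides and release dense-core vesicles. Of its 25 genes 17 were tested, of which 0 rose and 1 fell (14.3% and 11.7% of all records), with 2 and 3 at an unadjusted edgeR p below 0.05 and 0 and 1 by DESeq2, and the median was -0.11. The member that fell was sbt-1, for the 7B2 chaperone of the proprotein convertase EGL-3, which read 1248, 1046 and 1028 CPM in N2 and 755, 642 and 685 CPM in the mutant (log2 fold change -0.67 ± 0.14, edgeR adjusted p = 0.00946). The convertase gene egl-3 read 249, 169 and 99.2 CPM in N2 and 222, 143 and 147 CPM in the mutant, with a change of -0.01 ± 0.32. The release genes unc-31, which has 18 records, and unc-18 were at 0 in every library and were not tested. With the replicate block 1 of these genes rose and 3 fell, with the length trend also removed 0 rose and 5 fell, and with library size only 2 rose and 1 fell. The dauer pathways of TGF-beta and steroid hormone gave 0 calls among 9 tested genes, by edgeR, by DESeq2 and at an unadjusted edgeR p below 0.05, and 1 fell with the replicate block and length trend removed. Among them daf-7, a TGF-beta ligand gene of sensory neurons, was at 0.03 ± 0.17.

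Genes raised by DAF-16 activity or in starved and osmotically stressed animals were mostly lower in the mutant. Of 24 genes 20 were tested, of which 12 fell and 2 rose (11.7% and 14.3% of all records). The median was -1.32 against -0.01 for all records. The superoxide dismutase gene sod-3 read 16.6, 26.1 and 15.4 CPM in N2 and 2.48, 3.31 and 3.02 CPM in the mutant, and the linker histone gene hil-1 read 154, 158 and 130 against 49.7, 47.5 and 47.3 CPM. In both, no library of one group reached the other. The members that rose were aak-1, an AMP-activated kinase subunit gene, and gpdh-1, a glycerol synthesis gene, at 12.2, 11.6 and 11 CPM in N2 and 81.8, 78.1 and 78.0 CPM in the mutant. Genes on the list of those lowered by DAF-16 included both directions too. Of 10 tested, 4 fell and 1 rose (11.7% and 14.3% of all records), with a median of -1.52. Among the 4 that fell were dod-22, at -3.70 ± 0.30, and the aspartyl protease gene asp-13, at -2.73 ± 0.26, and the member that rose was dod-19, at 1.99 ± 0.32. With the block 6 of the genes on this lowered list fell and 2 rose, beside 16.3% and 18.9% of all records.

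**Figure D5:**
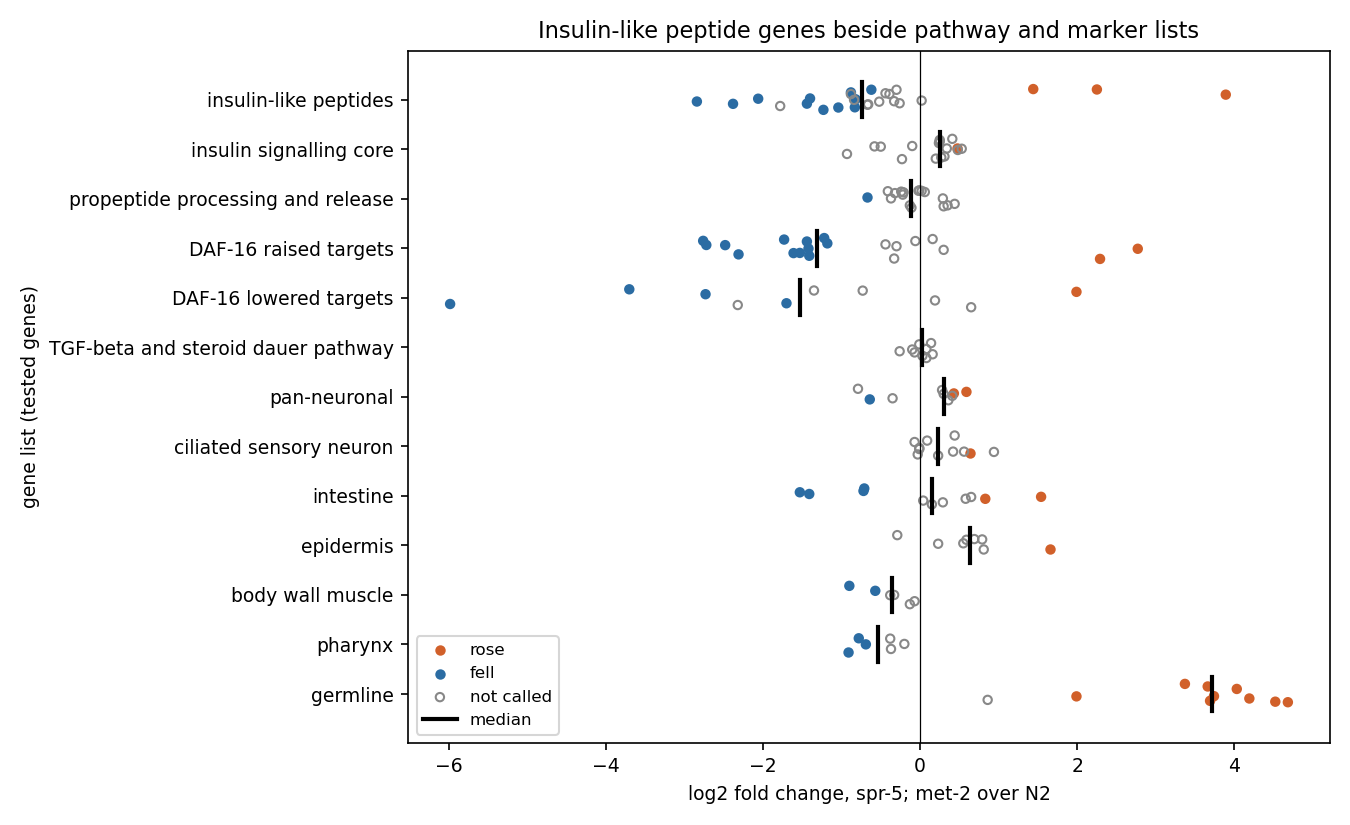
Log2 fold change of spr-5; met-2 over N2 for each tested gene of the insulin-like peptide family and of the pathway and marker lists (filled: adjusted p below 0.05; open: not called; black line: median). The median is -0.75 for the peptide genes, 0.25 for the insulin signalling core, -1.32 for DAF-16 raised targets and 3.71 for germline markers. The list labelled DAF-16 raised targets also holds genes raised in starved or osmotically stressed animals.

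Markers of tissues that make these peptides were read beside them. The counts below stand beside the shares of all tested records, of which 14.3% rose and 11.7% fell in the main fit. Those shares were 18.9% and 16.3% with the replicate block, and 19.8% and 5.69% with library size only. Of 9 tested genes on the list taken as pan-neuronal 2 rose and 1 fell. Their summed level was 468 to 513 CPM in N2 and 583 to 681 CPM in the mutant. The median log2 fold change of the 9 was 0.30, and those that rose were tbb-1 and ric-19 (0.43 ± 0.12, edgeR adjusted p = 0.0321). Most of the summed level was the tubulin gene tbb-1, whose restriction to neurons was not checked here. Without it the sums were 176, 174 and 183 CPM in N2 and 172, 148 and 161 CPM in the mutant, lower in every mutant library. The genes unc-64, snt-1, unc-33 and unc-119 had log2 fold changes above 0 without a call, and sng-1 and rab-3 had changes below 0 without a call. The active zone gene unc-10 was the one that fell (-0.64 ± 0.14, edgeR adjusted p = 0.0115), and with the replicate block rab-3, a synaptic vesicle GTPase gene, fell as well (edgeR adjusted p = 0.0253). Of 11 genes of ciliated sensory neurons, a site of daf-28, ins-4 and ins-6 but not shown here to be the only one, 1 rose and 0 fell. The counts by DESeq2 were the same, with 2 and 0 at an unadjusted edgeR p below 0.05. Their sums were 111 to 124 CPM in N2 and 117 to 145 CPM in the mutant. Of 11 intestinal genes 4 fell and 2 rose, and the summed level was 10042 to 12068 CPM in N2 and 7031 to 8517 CPM in the mutant. Without the protease gene asp-1, which fell and led that sum, the ranges of 2008 to 2448 CPM in N2 and 1991 to 2159 CPM in the mutant overlapped. The intestinal GATA factor gene elt-2 rose (1.54 ± 0.24) while the esterase gene ges-1 fell (-1.41 ± 0.25). With the replicate block 4 intestinal genes rose, with pept-1 and ifc-2 added, as did 2 ciliated neuron genes and 3 epidermal genes, where 1 epidermal gene rose without it. By DESeq2 1 intestinal gene rose, and with library size only 5 did. Pharynx markers fell in 3 of 6 cases and body wall muscle markers in 2 of 6. Germline markers rose in 9 of 10 cases, with sums of 88.6 to 131 CPM in N2 and 1433 to 1534 CPM in the mutant. At 0 in every library were the records of rgef-1 and ehs-1 among the pan-neuronal markers, cpr-6 among the intestinal, elt-3 among the epidermal and pgl-1 among the germline markers. The part of neuronal, intestinal, muscle, pharynx and germline content in the levels of the peptide genes was not tested.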

How the data were processed

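The authors deposited raw counts per RefSeq transcript record for 6 libraries and a comparison table with base mean signal, log2 fold change, a standard error and Wald score, p-value and adjusted p-value. The tools were featureCounts, Trimmomatic, FastQC and DESeq2 2.11.40.2 with build ce10, per the submitters' processing notes, and HISAT2, per the file headers. How strand and shared reads were handled is not given in the sources used here.

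Records were named by accession, without version, from a RefSeq gene table of WBcel235 (46074 of 50832 records). Exon lengths were summed from Ensembl's WBcel235 gene models. As that build is not ce10, no coordinates are given, and no sequences were used here. Records were filtered with filterByExpr (minimum count 10, minimum total 15), scaled by TMM and tested two-sided with edgeR 4.0.16 (R 4.3.3), with Benjamini-Hochberg adjustment over all 14557 records, a threshold of 0.05 and no block. The code was tested on simulated data. SE is the log2 fold change over the root of F, and 95% intervals use the test's t distribution. For lists with several records per gene, the record with the highest mean CPM was used.

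Alternatives were DESeq2 size factors, library size only, no filter, 1 CPM in 3 libraries, DESeq2 1.42.0, limma voom 3.58.1, the replicate block with and without a length trend (lowess, span 0.3), records summed per gene, each library left out, and a threshold of 0.01. Same-numbered libraries of both groups deviated together from their group means (correlations 0.456, 0.356 and 0.186 for numbers 1 to 3, each over 0.1). Libraries of unlike number gave correlations from -0.372 to 0.09, the highest near that of number 3. The numbers were taken to pair the libraries, most weakly for number 3. The main fit does not use this pairing, and the replicate block does.

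Per-library CPM are given for every called member and the 5 most abundant members without a call, and in addition for ins-4, ins-14 and ins-25, chosen after their values were seen, as were other listed genes named beyond daf-2, age-1, daf-16, egl-3 and those with the smallest adjusted p. Sums of lists without their most abundant gene were also added after the values were seen. Members and lists were chosen with earlier results of these data known. Reads carried no molecular identifiers and are not independent molecules, so floors and the interval of ins-19 cover counting error alone.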

Additional observations from a re-analysis of the deposited data

How the results depend on the processing

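Across the alternatives, 352 of the single-gene values of tested members kept their direction and side of the threshold, 25 lost the call, 3 gained it and 4 turned sign. The sign turned for ins-14, at 0.02 (-0.37 to 0.63 with a library left out), to -0.37, -0.07 and -0.12 without N2 replicates 1 and 2 and mutant replicate 3, and for ins-10 to 0.07 with the replicate block and length trend removed. The count of members that fell was 11, was 6 to 10 with a library left out (6 without mutant replicate 3), was 5 at an adjusted p below 0.01, and was 12 with the replicate block. The count that rose was 3, was 2 to 3 with a library left out, and was 1 at an adjusted p below 0.01 and 1 with a filter of 1 CPM in 3 libraries, which removes genes near 0. The median of -0.75 was -0.51 with library size only and -0.51 with the replicate block and length trend removed; it was -0.81 to -0.68 with a library left out. Over all records 2075 rose and 1698 fell, 2881 and 828 with library size only, 1214 and 665 at 0.01, 2755 and 2374 with the replicate block, and 1410 and 800 without mutant replicate 3. The replicate block changed no member call beyond that of ins-25. Low counts limit ins-19, ins-31, ins-34 and ins-25 and the 6 untested members. DESeq2 gave no adjusted p for some low records, which have no value there.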
